A study of Arabidopsis thaliana with 12 samples.

Results

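Levels of 7 genes were read from gene-level RNA counts of Arabidopsis thaliana: PREP1 (AT3G19170), PREP2 (AT1G49630), PARC6 (AT3G19180), ACC1 (AT1G36160), ACC2 (AT1G36180), AT1G17960 and AT2G18193. These 7 loci, out of 19714 genes counted in both genotypes, were chosen by name because earlier values of the same libraries had shown PREP1 to differ among libraries labelled atg5 and the other loci to differ with it or to be paralogs of one that did. Their levels in those libraries are therefore given as a description with no test, and tests are given only between media in wild type. All 7 were listed in both deposited tables, and 0 had exons overlapping those of another gene.

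Seeds of wild-type Col-0 and of atg5, the insertion line SALK_020601C for the autophagy gene ATG5, were germinated for 5 days in flasks of liquid medium. Every group was grown in diluted Murashige medium with 0.5% sucrose. NM is that control medium, and WSM is the same medium with 2.5% glycerol and 0.5% alginic acid added to impose water stress. Of 12 labelled samples, the count columns hold 3 libraries of wild type in NM, 2 of wild type in WSM, 2 of atg5 in NM and 3 of atg5 in WSM. A library is named here by its group plus its column number. The labels do not say whether libraries of a group came from separate flasks, so a p-value covers no more than the spread among the libraries counted, and that spread may be technical. RNA came from whole seedlings, so fewer cells of a type and less RNA per cell cannot be told apart.

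The libraries held 8928632 (atg5 WSM library 1) to 24022759 counts, with TMM scaling factors from 0.569 to 1.497. Log2 counts of libraries of 1 group correlated at 0.882 to 0.986 across genes, with the lowest value for a pair that includes atg5 WSM library 1. The ATG5 gene itself (AT5G17290) stood at 20.2 to 30.8 CPM (counts scaled to library size) in wild-type libraries and at 20.5 to 31.7 CPM in those labelled atg5. A count over a whole gene does not check an insertion. Leaf and root markers were counted in every group, as fits the label seedling. The summed level of 3 leaf and cotyledon markers was 8543 to 9311 CPM in wild-type NM and 4972 to 6231 in atg5 NM, without overlap. In WSM it was 5621 to 9551 CPM in wild type and 5609 to 11280 in atg5. The summed level of 3 root markers was 108.5 to 118.7 CPM in wild-type NM, 33.5 to 47.8 in wild-type WSM, 60.3 to 86.2 in atg5 NM and 34.8 to 50.1 in atg5 WSM, so it was lower in WSM in both genotypes and lower in atg5 NM than in wild-type NM. The summed level of 3 seed storage markers was 1444 to 2118 CPM in wild-type libraries and 7.42 to 123 CPM in libraries labelled atg5. The part of any of these marker sets in the differences between media and genotypes was not tested.

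PREP1 and PREP2 are metallopeptidases of mitochondria and chloroplasts that degrade the targeting peptides cut from imported proteins. PARC6 is a protein of the inner chloroplast envelope that takes part in placing the chloroplast division ring. Acetyl-CoA carboxylase makes malonyl-CoA, the carbon donor of fatty acid synthesis. In plants such as Arabidopsis most plastid malonyl-CoA comes from a heteromeric enzyme with 1 subunit encoded in the plastid, while ACC1 is a large single-chain enzyme of the cytosol that serves fatty acid elongation. ACC2 is a close copy of ACC1 that carries a plastid targeting extension, and plants with an active ACC2 are known to tolerate inhibitors of plastid translation better. AT1G17960 is annotated as a threonyl-tRNA synthetase, an enzyme that joins threonine to its tRNA. AT2G18193 is annotated as a P-loop nucleoside triphosphate hydrolase and belongs to the AAA-type ATPases that resemble BCS1.

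The 7 genes lie on chromosomes 1, 2 and 3 (positions from the RefSeq annotation of TAIR10.1). PREP1 (chromosome 3, 6625377 to 6632164, minus strand) and PARC6 (6632637 to 6637292, plus strand) start back to back with 472 bases between them. ACC1 (chromosome 1, 13533168 to 13544015) and ACC2 (13545965 to 13558600) follow each other on the plus strand with 1949 bases between them. PREP2 lies on the minus strand of chromosome 1 at 18367590 to 18375494, AT1G17960 on the same strand at 6180865 to 6183806, and AT2G18193 on the minus strand of chromosome 2 at 7917413 to 7919345. The next sequences are the 250 bases before the annotated start of the genes that differed most among libraries, shown because the first pair shares 1 intergenic region and the last 3 were high in both atg5 NM libraries. Each is written 5′ to 3′ on the strand of its gene, and capitals mark matches to the motifs searched.
PREP1, chr3:6632165-6632414, minus strand: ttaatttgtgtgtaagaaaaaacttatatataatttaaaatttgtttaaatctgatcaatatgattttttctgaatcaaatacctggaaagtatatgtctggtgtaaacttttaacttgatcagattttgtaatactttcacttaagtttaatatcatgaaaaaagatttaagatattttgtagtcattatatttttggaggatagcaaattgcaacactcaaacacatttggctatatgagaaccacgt
PARC6, chr3:6632387-6632636, plus strand: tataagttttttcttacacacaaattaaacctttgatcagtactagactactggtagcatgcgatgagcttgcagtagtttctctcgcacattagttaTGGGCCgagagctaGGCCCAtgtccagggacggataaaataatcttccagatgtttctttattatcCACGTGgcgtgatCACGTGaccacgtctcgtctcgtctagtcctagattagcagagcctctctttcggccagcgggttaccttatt
ACC2, chr1:13545715-13545964, plus strand: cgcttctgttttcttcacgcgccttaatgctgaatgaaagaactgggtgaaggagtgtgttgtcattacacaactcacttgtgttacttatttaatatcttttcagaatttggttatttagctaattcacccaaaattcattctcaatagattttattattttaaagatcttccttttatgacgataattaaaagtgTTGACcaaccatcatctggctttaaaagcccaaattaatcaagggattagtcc
AT1G17960, chr1:6183807-6184056, minus strand: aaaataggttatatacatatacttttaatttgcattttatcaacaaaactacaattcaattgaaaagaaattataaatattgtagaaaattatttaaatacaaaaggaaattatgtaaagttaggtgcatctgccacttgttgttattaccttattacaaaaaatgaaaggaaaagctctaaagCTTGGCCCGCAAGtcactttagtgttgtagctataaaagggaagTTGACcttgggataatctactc
AT2G18193, chr2:7919346-7919595, minus strand: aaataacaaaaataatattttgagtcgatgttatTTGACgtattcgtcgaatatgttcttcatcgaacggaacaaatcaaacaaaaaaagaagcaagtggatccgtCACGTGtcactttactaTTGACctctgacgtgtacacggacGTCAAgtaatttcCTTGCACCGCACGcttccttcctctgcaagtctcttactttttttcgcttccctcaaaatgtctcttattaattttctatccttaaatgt

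The first pair of windows shares 28 bases, read from opposite strands. On both strands the search covered the W-box core TTGAC (in 44.9% of 27443 windows of the same length), the G-box CACGTG (6.49%), the site II element TGGGCC (13.7%), the telo-box AAACCCTA (4.49%) and the mitochondrial dysfunction motif (1.2%), a motif known upstream of genes that answer impaired mitochondria. The mitochondrial dysfunction motif occurred 66 to 54 bases before the start of AT1G17960, 90 to 78 bases before that of AT2G18193 and 200 to 188 bases before that of PREP2. The PREP2 window runs into the neighbouring annotated gene AT1G49640, and its match lies within that gene. The ACC2 window held 1 W-box core, 53 to 49 bases before the start. That of AT1G17960 held 1 as well, 22 to 18 bases before the start. The PREP2 window held 1 at 115 to 111 bases, also within AT1G49640. The AT2G18193 window held 3 W-box cores and 1 G-box, and that of PARC6 held 2 G-boxes and 2 site II elements. No searched motif was in the windows of PREP1 and ACC1. A match describes letters in a window and does not show a bound site.

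ACC2 has a longer coding start than ACC1. Over the aligned coding bases they were 90.3% identical, and ACC2 had 315 coding bases before the counterpart of ACC1's first codon. Of these, 265 lie in its first coding exon, shown because they encode most of the extension that sets the plastid form apart.
ACC2 first coding exon, chr1:13546047-13546311, plus strand: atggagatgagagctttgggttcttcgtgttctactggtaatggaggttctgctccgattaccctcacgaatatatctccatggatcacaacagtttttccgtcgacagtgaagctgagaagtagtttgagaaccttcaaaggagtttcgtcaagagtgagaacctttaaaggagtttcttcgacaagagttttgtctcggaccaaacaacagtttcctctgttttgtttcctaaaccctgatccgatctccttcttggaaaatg

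Reads could in principle be shared between such paralogs, so stretches of 75 bases, the read length, were compared. Of the stretches in ACC1's coding sequence 0.105% occurred unchanged in ACC2, and of those in PREP1 0% occurred in PREP2, at 85.6% identity. AT2G18193 shared 1.06% with its tandem neighbour AT2G18190 at 85% identity. AT1G17960 shared 0% with AT5G26830, a related threonyl-tRNA synthetase at 78% identity.

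PREP1 was abundant in every wild-type library and close to 0 in 3 of the 5 libraries labelled atg5. Its counts were 753, 1449 and 1872 in wild-type NM libraries 2, 3 and 4, and 2057 and 2668 in wild-type WSM libraries 3 and 4. They were 2 and 0 in atg5 NM libraries 1 and 3, and 349, 4 and 2412 in atg5 WSM libraries 1, 2 and 3. The libraries labelled atg5 thus fell on both sides at this gene: atg5 WSM libraries 1 and 3 held it and the other 3 did not. In CPM, PREP1 stood at 68.0 ± 5.57 in wild-type NM (SD, n = 3) and 102 ± 4.78 in wild-type WSM (n = 2). It stood at 68.8 CPM in atg5 WSM library 1 and at 94.8 CPM in library 3, which is 0.671 and 0.925 times the wild-type WSM mean. In atg5 WSM library 2 it stood at 0.132 CPM, 777-fold below that mean. That fold rests on 4 counts, with a 95% Poisson interval of 0.0359 to 0.3375 CPM.

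PARC6, which starts 472 bases from PREP1, divided the libraries in the same way. Its counts were 77, 165 and 201 in wild-type NM, 270 and 255 in wild-type WSM, 0 and 0 in atg5 NM, and 15, 0 and 175 in atg5 WSM libraries 1, 2 and 3. A count of 0 allows a level of up to 0.1005 CPM in atg5 NM library 1, 0.146 CPM in atg5 NM library 3 and 0.0989 CPM in atg5 WSM library 2, counting error only. The lowest wild-type level was 6.30 CPM. PARC6 in atg5 WSM library 1 stood at 2.96 CPM and in library 3 at 6.87 CPM, below both wild-type WSM libraries (13.9 and 9.47 CPM). Per exonic kilobase, PREP1 was 6.22 to 8.54 times as high as PARC6 in wild-type libraries, 19.0 times in atg5 WSM library 1 and 11.3 times in library 3.

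**Figure D1:**
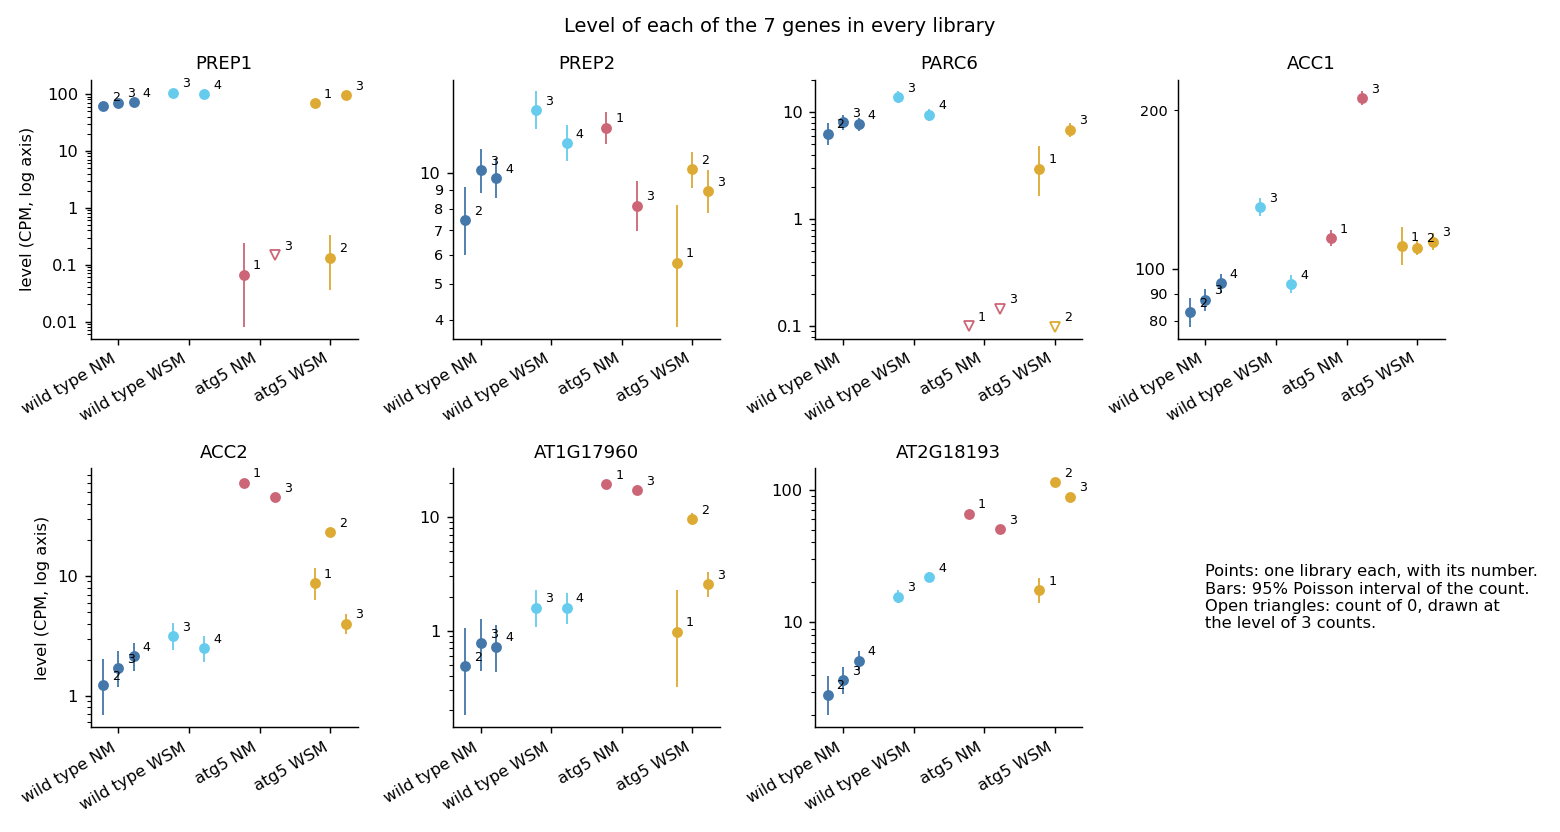
Level in CPM (log axis) of each of the 7 genes in the 10 libraries, by group, with 1 point for each library marked by its column number, 95% Poisson intervals of the count as bars, and open triangles for counts of 0 drawn at the level of 3 counts. PREP1 and PARC6 are near or at 0 in atg5 NM libraries 1 and 3 and atg5 WSM library 2, and ACC2 and AT1G17960 are highest in those 3 libraries.

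PREP2, the paralog of PREP1, did not divide the libraries. Its level was 7.44, 10.2 and 9.68 CPM in wild-type NM, 14.8 and 12.1 in wild-type WSM, 13.3 and 8.16 in atg5 NM, and 5.71, 10.2 and 8.92 in atg5 WSM. The atg5 NM libraries, which held 2 and 0 counts of PREP1, overlapped the wild-type NM libraries in PREP2, with a fitted log2 difference of 0.23 ± 0.30 (SE). In WSM all 3 atg5 libraries lay below both wild-type libraries in PREP2, by a fitted log2 of -0.66 ± 0.30 (-0.84 to -0.49 with 1 library left out). The share of all genes with such a gap was not counted, so it is not read as a difference of PREP2. The NM difference was -0.26 once a trend with exonic length was fitted and -0.16 without atg5 NM library 1. Per exonic kilobase PREP1 exceeded PREP2 by 7.97 to 9.47 times in wild-type libraries, and by 13.8 and 12.2 times in atg5 WSM libraries 1 and 3.

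The genes beside PREP1 were read in annotation order to see how far the pattern extends. Of the 20 genes within 10 places of PREP1, 12 were in both tables, 1 was in the atg5 table only and 7 were in neither. Beyond PARC6, the next gene is AT3G19184, a transcription factor of the B3 family that starts 54 bases after PARC6 ends and was listed in the atg5 table only. Its counts were 398 and 181 in atg5 NM libraries 1 and 3, and 1, 310 and 14 in atg5 WSM libraries 1, 2 and 3. AT3G19184 was thus high in the libraries where PREP1 and PARC6 were near 0 and low where they were present.

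ATG2, which encodes an autophagy protein that helps the membrane of the autophagosome grow, starts 360 bases after AT3G19184. Its level was 5.73, 3.13 and 4.59 CPM in wild-type NM, 10.03 and 6.50 in wild-type WSM, 31.1 and 23.8 in atg5 NM, and 8.67, 26.6 and 6.32 in atg5 WSM libraries 1, 2 and 3. Against the wild-type mean of the same medium, ATG2 was 6.94 and 5.31 times as high in atg5 NM libraries 1 and 3, 3.22 times in atg5 WSM library 2, and 1.05 and 0.765 times in atg5 WSM libraries 1 and 3. Between genotypes in NM its log2 difference was 2.63 ± 0.52, which did not pass (edgeR quasi-likelihood F test, adjusted p = 0.0822 after Benjamini-Hochberg). AT3G19200, the gene after ATG2, encodes an uncharacterized protein and stood at 1.23 to 3.70 CPM in wild type. It stood at 2.71 and 2.72 CPM in atg5 NM, within that range, and at 5.12, 7.71 and 1.69 CPM in atg5 WSM libraries 1, 2 and 3, of which the first pair lay above it.

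On the other side of PREP1 the nearest listed gene is KRP6, an inhibitor of cyclin-dependent kinases. It stood at 8.58 and 6.17 CPM in atg5 NM, and at 9.06, 16.1 and 16.3 CPM in atg5 WSM libraries 1, 2 and 3, with no gap between the libraries that held PREP1 and the one that did not. Of the 11 tested neighbours other than PARC6, 0 passed between genotypes in either medium by edgeR (all genes 0.147% in NM and 0.0355% in WSM). In NM 1 of them, ATG2, had an unadjusted p under 0.05 and was called by DESeq2, and in WSM 0 did by either. Between media 1 of the 11 passed by edgeR in wild type (all genes 5.89%) and 1 in atg5 (7.86%). DESeq2 called KRP6 as well in both genotypes. The gene that passed by edgeR was AT3G19240, annotated as related to the yeast protein Vid27. It rose in WSM in wild type by a log2 of 1.94 ± 0.37 (edgeR adjusted p = 0.0112) and in atg5 by 2.14 ± 0.40 (adjusted p = 0.00904). Of its exons, 14.3% overlap those of another gene.

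**Figure D2:**
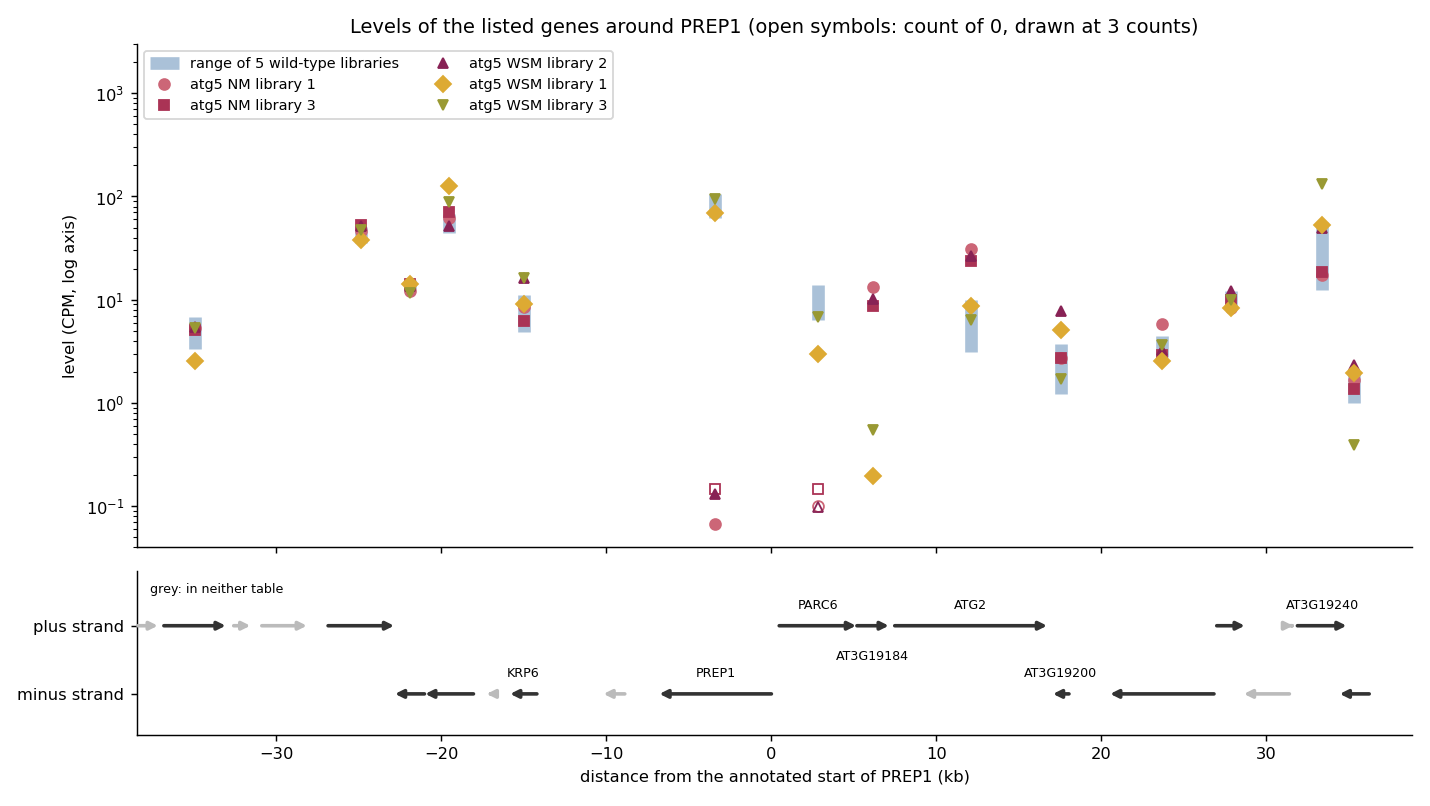
Upper panel, level in CPM (log axis) of each listed gene around PREP1 against distance from PREP1's annotated start in kilobases, with the range of the 5 wild-type libraries as a bar and each library labelled atg5 as a symbol. Lower panel, the annotated genes as arrows by strand. The spread among libraries labelled atg5 is widest at PREP1, PARC6 and AT3G19184, and ATG2 is high in the 3 libraries that are near 0 at PREP1.

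ACC2 was low in wild type and high in libraries labelled atg5, to degrees that differed widely. Its counts were 15, 35 and 56 in wild-type NM and 61 and 67 in wild-type WSM. They were 1794 and 938 in atg5 NM libraries 1 and 3, and 44, 700 and 102 in atg5 WSM libraries 1, 2 and 3. Scaled for depth, these are 1.69 ± 0.458 CPM in wild-type NM (n = 3), 2.81 ± 0.460 in wild-type WSM (n = 2), 60.1 and 45.5 CPM in atg5 NM, and 8.67, 23.1 and 4.01 CPM in atg5 WSM. Every library labelled atg5 lay above every wild-type library. These libraries chose the gene, and the share of all genes with such a gap was not counted. ACC2 was 35.5 and 26.9 times the wild-type NM mean in the atg5 NM libraries, and 3.08, 8.20 and 1.43 times the wild-type WSM mean in atg5 WSM libraries 1, 2 and 3.

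The fitted log2 difference of ACC2 between atg5 and wild type was 4.93 ± 0.59 in NM and 2.11 ± 0.59 in WSM. Within libraries labelled atg5, WSM stood below NM by a log2 of -2.12 ± 0.52. Both differences in WSM depend on which libraries enter. Without atg5 WSM libraries 1 and 3, that is with library 2 alone, the WSM difference between genotypes was 3.04 and the difference between media was -1.20. Without library 2 these were 1.08 and -3.17. The authors' deposited table gives -2.13 ± 0.65 (SE) for ACC2 in atg5, WSM against NM.

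ACC1, the cytosolic form, varied far less than its neighbour. Its level was 82.9, 87.6 and 94.1 CPM in wild-type NM, 131 and 93.8 in wild-type WSM, 115 and 211 in atg5 NM, and 111, 110 and 113 in atg5 WSM. Both atg5 NM libraries lay above all wild-type NM libraries, by a fitted log2 of 0.88 ± 0.26. The share of all genes with such a gap was not counted. Without atg5 NM library 3 the log2 was 0.38, and with the length trend it was 0.19. In WSM the genotypes overlapped, with a log2 difference of -0.02 ± 0.26. ACC1 and ACC2 have 7767 and 7852 exonic bases, longer than 99.8% of genes, so both carry any change that goes with transcript length. With the length trend the ACC2 difference in NM was 4.14.

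The balance between the forms shifted in the libraries labelled atg5. Per exonic kilobase, ACC1 was 38.1 to 68.3 times as high as ACC2 in the 5 wild-type libraries. That ratio was 1.93 and 4.68 in atg5 NM libraries 1 and 3, and 12.9, 4.82 and 28.5 in atg5 WSM libraries 1, 2 and 3. ACC1 remained the higher of the pair in all 10 libraries, and the ranges of wild type and atg5 did not overlap.

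**Figure D3:**
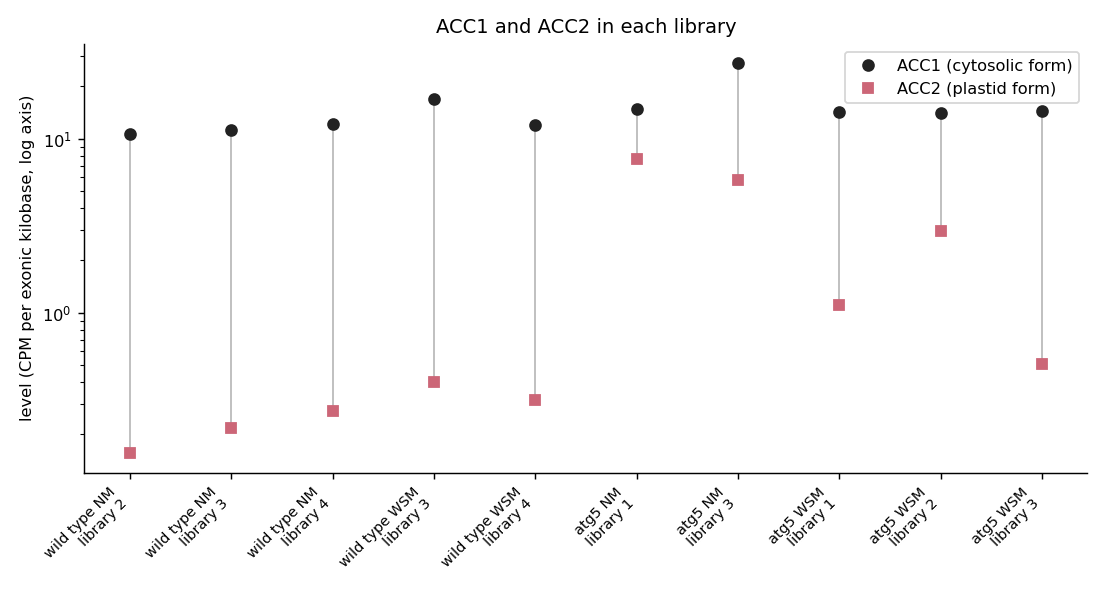
Level of ACC1 (circles) and ACC2 (squares) in CPM per exonic kilobase (log axis) in each of the 10 libraries, joined by a line. The gap is 38.1 to 68.3 times in wild type and narrows to 1.93 times in atg5 NM library 1.

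The heteromeric plastid acetyl-CoA carboxylase makes the same product as ACC2, and its genes were compared between genotypes in NM and WSM. Of 9 listed entries, 8 were in both tables, and accD, the subunit encoded in the plastid, was not tested here. In NM, 0 of the 8 passed between atg5 and wild type by the edgeR quasi-likelihood test, beside 0.147% of all genes. With so small a share, 0 of 8 says little about this enzyme. Of the 8, 1 had an unadjusted p under 0.05, and DESeq2 called 0. The 8 log2 differences ran from -0.71 to 0.34. Their median was -0.27, beside 0.03 over all genes. BCCP2, a biotin carrier subunit, stood at 19.8 ± 5.74 CPM in atg5 NM (n = 2) and 32.3 ± 4.41 in wild-type NM (n = 3), a log2 of -0.71 ± 0.26 (adjusted p = 0.252). CAC1, the other biotin carrier, stood at 43.0 ± 3.86 and 62.7 ± 3.45 CPM, a log2 of -0.54 ± 0.29 (adjusted p = 0.434). CAC3, a carboxyltransferase subunit, stood at 84.7 ± 11.8 and 66.9 ± 7.41 CPM, a log2 of 0.34 ± 0.23 (adjusted p = 0.553).

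The other entries of that enzyme showed smaller differences in NM. CAC2, the biotin carboxylase, had a log2 difference of 0.00 ± 0.19. HCS1, which attaches biotin to such carriers, had -0.05 ± 0.37. AT3G56130, AT1G52670 and AT3G15690 had -0.25 ± 0.19, -0.28 ± 0.26 and -0.31 ± 0.33. In WSM against wild type 0 of the 8 passed, beside 0.0355% of all genes (2 at an unadjusted p under 0.05, 0 with DESeq2). Their log2 differences in WSM ran from -0.63 to 0.37, with a median of -0.34 beside 0.03 over all genes.

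AT1G17960 followed ACC2 closely. Its level was 0.491, 0.782 and 0.727 CPM in wild-type NM, 1.60 and 1.60 in wild-type WSM, 19.4 and 17.3 in atg5 NM, and 0.985, 9.59 and 2.55 in atg5 WSM libraries 1, 2 and 3. Both atg5 NM libraries lay above all wild-type libraries, at 29.2 and 25.9 times the wild-type NM mean. As for ACC2, the share of all genes with such a gap was not counted. In atg5 WSM, library 2 was 6.01 times the wild-type WSM mean, while libraries 1 and 3 were 0.618 and 1.60 times it, so those groups overlapped. The fitted log2 difference between genotypes was 4.74 ± 0.67 in NM and 1.56 ± 0.65 in WSM. In WSM it was 0.32 without library 2 and 2.58 without libraries 1 and 3.

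The organelle aminoacyl-tRNA synthetases as a group did not follow AT1G17960. Of 12 listed, all tested, 0 passed between genotypes in NM by edgeR, beside 0.147% of all genes, so that count alone says little. At an unadjusted p under 0.05 there were 0, and DESeq2 called 0. Their log2 differences ran from -0.35 to 0.43, with a median of 0.04 beside 0.03 over all genes. In WSM between genotypes 0 passed by edgeR, beside 0.0355% of all genes (4 at an unadjusted p under 0.05, 0 with DESeq2). There the log2 differences of the 12 ran from -0.73 to -0.05, with a median of -0.43 beside 0.03 over all genes. In wild type, WSM against NM, 0 passed (5 at an unadjusted p under 0.05, 1 with DESeq2), where edgeR called 5.89% and DESeq2 11% of all genes, with a median of 0.46 beside 0.02 over all genes.

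AT2G18193 was higher in atg5 NM than in wild-type NM, and in wild type it was higher in WSM than in NM. Its level was 2.86, 3.66 and 5.17 CPM in wild-type NM, 15.6 and 21.9 in wild-type WSM, 65.9 and 50.2 in atg5 NM, and 17.5, 114 and 88.7 in atg5 WSM libraries 1, 2 and 3. In atg5 NM it was 16.9 and 12.9 times the wild-type NM mean. In atg5 WSM libraries 2 and 3 it was 6.07 and 4.72 times the wild-type WSM mean, and in library 1 it was 0.933 times. It was thus high in library 3, where PREP1 was present and ACC2 stood at 4.01 CPM. The fitted log2 differences between genotypes were 3.88 ± 0.58 in NM and 1.98 ± 0.59 in WSM.

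AT2G18190, the tandem neighbour of AT2G18193 with 1540 bases between them, was listed in the atg5 table only. Its counts were 73 and 35 in atg5 NM libraries 1 and 3, and 0, 66 and 10 in atg5 WSM libraries 1, 2 and 3. At 0.393 CPM in library 3 it was low where AT2G18193 was at 88.7 CPM. AT2G18210, a listed gene within 3 places of AT2G18193, rose in WSM in wild type by a log2 of 2.73 ± 0.61 (edgeR adjusted p = 0.0262). In atg5 it rose by 3.88 ± 0.71 (edgeR adjusted p = 0.00812). Over all genes, 5.89% and 7.86% were called in these comparisons.

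In wild type, the comparison of WSM with NM used no library labelled atg5 in its contrast, and here the genes could be tested. Of the 7, AT2G18193 passed (edgeR quasi-likelihood F test in a fit of all 10 libraries, adjusted p = 0.0417 after Benjamini-Hochberg), beside 5.89% of all 19714 genes and 3.27% that were higher. It rose by a log2 of 2.25 ± 0.57 (SE), from 3.90 ± 1.17 CPM (SD, n = 3) to 18.8 ± 4.46 (n = 2), and the groups did not overlap. That call was lost when any 1 of the 5 wild-type libraries was left out (adjusted p = 0.0860 to 0.224) and when atg5 WSM library 3 was left out (adjusted p = 0.0524), with log2 values from 1.99 to 2.52. DESeq2 also called 1 of the 7, beside 11% of all genes. The authors' deposited table gives 2.24 ± 0.28 for AT2G18193, with an adjusted p of 7.77e-14.

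The other 6 genes were higher in WSM by fitted values that did not pass in that fit. AT1G17960 had a log2 of 1.22 ± 0.69 (edgeR adjusted p = 0.321), ACC2 0.69 ± 0.59 (adjusted p = 0.519) and PARC6 0.66 ± 0.99 (adjusted p = 0.736). PREP1 had 0.59 ± 1.16 (adjusted p = 0.805), PREP2 0.56 ± 0.30 (adjusted p = 0.290) and ACC1 0.35 ± 0.26 (adjusted p = 0.456). The groups overlapped for ACC1, and for the others both WSM libraries lay above all 3 NM libraries. The share of all genes with such a gap was not counted, so it is not read as a rise of these genes. Each gene has a single spread in this fit, shared by all 4 groups, so the split of the libraries labelled atg5 enters the errors of PREP1 and PARC6.

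With the 5 wild-type libraries alone in the fit, the log2 values were close to those above and their errors smaller. PREP1 had 0.59 ± 0.14 (edgeR adjusted p = 0.00950), PARC6 0.65 ± 0.21 (adjusted p = 0.0370), AT1G17960 1.21 ± 0.39 (adjusted p = 0.0350) and PREP2 0.55 ± 0.19 (adjusted p = 0.0493). With AT2G18193 that is 5 of the 7, beside 29.2% of 20002 genes in this fit. ACC2 and ACC1 did not pass (adjusted p = 0.134 and 0.135). The authors' deposited table for wild type gives PREP1 0.58 ± 0.16 with an adjusted p of 0.00202 and PARC6 0.65 ± 0.26 with 0.0441. In the authors' deposited table PREP2 has an adjusted p of 0.0698 and AT1G17960 one of 0.0892.

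**Figure D4:**
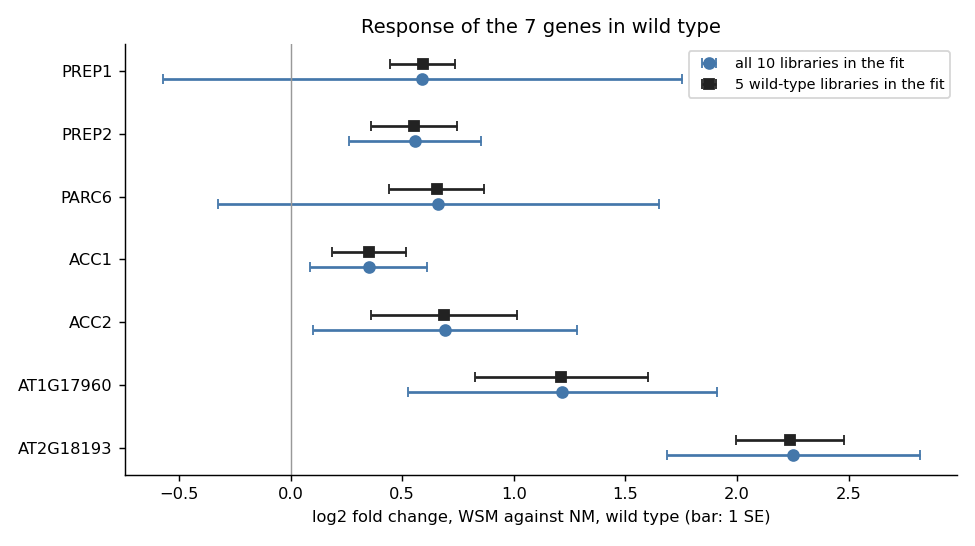
Log2 fold change of WSM against NM in wild type for the 7 genes, with 1 SE as bars, from the fit of all 10 libraries (circles) and from the 5 wild-type libraries alone (squares). The values are close, and the SE of PREP1 is 1.16 in the first and 0.14 in the second.

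For ACC1 the direction in wild type depended on the scaling: with a trend on exonic length fitted, its log2 was -0.35 (edgeR adjusted p = 0.604). The level order of the 7 genes per exonic kilobase in wild-type NM was PREP1 (18.0 ± 1.48 CPM per kilobase, n = 3), ACC1 (11.4 ± 0.718), PARC6 (2.39 ± 0.302), PREP2 (2.11 ± 0.336), AT2G18193 (2.10 ± 0.630), AT1G17960 (0.418 ± 0.0968) and ACC2 (0.216 ± 0.0583). PARC6, PREP2 and AT2G18193 did not differ beyond their spread. In atg5 NM the order was AT2G18193 (31.3 ± 5.96, n = 2), ACC1 (21.0 ± 8.73), AT1G17960 (11.5 ± 0.948), ACC2 (6.73 ± 1.31) and PREP2 (2.48 ± 0.837), followed by PREP1 and PARC6 at or near 0.

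Among genes related to AT2G18193, BCS1 and AT3G28580 rose in WSM. Of 21 listed AAA-type ATPases like BCS1, 9 were in both tables, and 2 rose in wild type (edgeR; 3 at an unadjusted p under 0.05, 2 with DESeq2), beside 3.27% of all genes that were called higher. The 9 log2 values ran from -0.72 to 5.54 with a median of 0.21, beside 0.02 over all genes. BCS1, a protein of the mitochondrial membrane known from stress and salicylic acid responses, stood at 7.77, 4.10 and 6.47 CPM in wild-type NM and at 85.9 and 78.6 CPM in wild-type WSM, and rose by 3.76 ± 0.47 on the log2 scale (adjusted p = 0.000967). AT3G28580 had 0, 4 and 4 counts in wild-type NM and 131 and 166 in wild-type WSM (adjusted p = 0.000436). The same pair rose in WSM in atg5 (7.86% of all genes called), by 2.81 ± 0.50 for BCS1 (adjusted p = 0.00706) and 2.57 ± 0.52 for AT3G28580 (adjusted p = 0.0138). In atg5 NM, where AT2G18193 stood at 65.9 and 50.2 CPM, BCS1 stood at 18.5 and 11.8 CPM. That was above wild-type NM (4.10 to 7.77 CPM) by a log2 of 1.32 ± 0.45 that did not pass (edgeR adjusted p = 0.226). AT3G28580 was also above wild-type NM, by 3.22 ± 0.65 without passing (adjusted p = 0.0850), on few counts in wild type. Of the 9, 0 passed between genotypes in NM, beside 0.147% of all genes (4 at an unadjusted p under 0.05, 1 with DESeq2). Their median there was 0.50, beside 0.03 over all genes.

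The remaining lists held 1 called gene. Of 9 tested genes that respond to mitochondrial dysfunction, CYP81D8, a cytochrome P450, rose in WSM in atg5 by a log2 of 4.72 ± 0.99 (edgeR adjusted p = 0.0161), 1 call of 9 beside 7.86% of all genes, with 2 called by DESeq2. CYP81D8 stood at 1.58 CPM in atg5 WSM library 1 and at 31.6 and 46.2 CPM in libraries 2 and 3. AT2G18193 was also lowest in library 1 among atg5 WSM, but that library held the fewest counts (8928632). A link between these genes was not tested. In wild type 0 of these 9 passed, beside 5.89% of all genes (1 at an unadjusted p under 0.05, 0 with DESeq2). Between genotypes 0 passed by edgeR, beside 0.147% of all genes in NM and 0.0355% in WSM. At an unadjusted p under 0.05 there were 3 in NM and 5 in WSM, and DESeq2 called 1 and 2. The medians of these 9 between genotypes were 0.65 in NM and 1.36 in WSM, beside 0.03 over all genes in both. Of 9 organelle presequence and peptide peptidases, 12 plastid division genes and 12 plastid chaperones and proteases, 0 passed in any of the 4 comparisons by edgeR. Over all genes edgeR called 0.0355% to 7.86% in a comparison. At an unadjusted p under 0.05 these lists had at most 3, 5 and 3 genes in a comparison, and at most 1 with DESeq2. Their medians in NM between genotypes were 0.08, -0.13 and 0.21, beside 0.03 over all genes. In WSM between genotypes they were -0.21, -0.27 and -0.35, beside 0.03. In wild type, WSM against NM, they were 0.22, 0.10 and 0.50, beside 0.02, and all 12 tested plastid chaperones and proteases had values above 0, from 0.22 to 0.84. In atg5, WSM against NM, the medians were -0.20, 0.04 and 0.02, beside -0.02.

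Across all 10 libraries, the genes most like PREP1 and ACC2 were ranked by Pearson correlation of log2(CPM + 0.5) among the 13899 genes that averaged 5 CPM or more, as a description. For PREP1 the closest was PARC6 (r = 0.98), followed by GPS1 (0.96), annotated as a geranyl diphosphate synthase. Next came the seed maturation protein AT2G21820 (0.95), LIN2 (0.95), an enzyme of chlorophyll and haem synthesis, and AT1G23750 (0.94). Outside PARC6 the sizes differed: GPS1 ran from 32.6 to 36.8 CPM in wild type and from 25.9 to 34.0 CPM in libraries labelled atg5. AT2G21820 stood at 8.65 to 12.7 CPM in wild type, 0.603 and 1.46 in atg5 NM, and 5.91, 1.12 and 5.58 in atg5 WSM libraries 1, 2 and 3. Its lowest levels, in the 3 libraries near 0 at PREP1, restate its rank, which these same libraries gave. AT2G21820 was lower in every library labelled atg5 than in wild type, as the seed storage markers were.

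The genes most opposite to PREP1 were AT1G17960 (r = -0.93), GMI1 (-0.93), AT5G55060 (-0.92), ACC2 (-0.92) and AT4G02940 (-0.92). PARC6, AT1G17960 and ACC2 were chosen for differing with PREP1 in these libraries, so their ranks restate that choice. AT1G17960, ACC2, GMI1 and PARP2 stood at most at 1.60, 3.14, 4.195 and 4.37 CPM in wild type. These genes reached the mean of 5 CPM only through libraries labelled atg5. GMI1, named for its induction by gamma irradiation and a protein of DNA repair, stood at 2.45 to 4.195 CPM in wild type, 17.9 and 15.3 in atg5 NM, and 1.38, 16.2 and 4.09 in atg5 WSM libraries 1, 2 and 3. GMI1 was ranked by these same libraries, so its high levels in the 3 libraries near 0 at PREP1 restate its rank. For ACC2 the closest were AT1G17960 (0.95), ATG2 (0.94), PARP2 (0.92), AT5G17910 (0.92) and CBSX6 (0.91), and the most opposite were AT2G21820, AT5G19370 and AT3G04920 (each -0.95), PARC6 and EMB2786 (each -0.94). PARP2, a poly(ADP-ribose) polymerase active in DNA repair, stood at 3.94 to 4.37 CPM in wild type, 14.2 and 10.6 in atg5 NM, and 7.29, 10.1 and 2.79 in atg5 WSM. PREP2 correlated with PREP1 at -0.10 and with ACC2 at 0.05. These libraries share genotype, medium and depth, and the correlations carry no test.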

How the data were processed

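Per the file headers, each of the deposited tables, 1 for wild type and 1 for atg5, gives unnormalized read counts for every library. Log2 fold changes with standard errors, and p-values before and after adjustment, were computed by the authors and stand beside them, while 10 columns of normalized values were not used. Per the labels' protocols, stranded mRNA libraries were sequenced in pairs of 75 bases. The submitters' processing notes name TAIR10 and the tools Bowtie2, bedtools, bcl2fastq and DESeq2. Versions, and how reads were assigned to genes, were not given in the sources used. Rows number 20002 for wild type and 20492 for atg5. Columns carry a genotype, medium and number that differs from the titles' numbers, so each was given its group only, and for 2 of 12 labelled samples no column was used.

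An edgeR 4.0.16 quasi-likelihood model (R 4.3.3, limma 3.58.1) was fitted to the 19714 genes common to the tables, with 4 groups, TMM factors and 6 residual degrees of freedom. The biological coefficient of variation was 28.2%. A Benjamini-Hochberg adjusted p under 0.05 over all genes was a call. CPM use TMM-scaled totals; SE is that of the log2 fold change. filterByExpr removed 0 genes. With 1 to 3 counts or fewer in a group no fold is given. Poisson intervals (95%) and floors (3 counts for a count of 0) cover counting error only. Library totals ran from 8928632 to 24022759. No pair of libraries agreed within sampling noise (chi-square per degree of freedom 30.07 to 370.2). The code was tested on simulated counts.

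Exonic lengths, symbols, positions and sequences come from RefSeq for TAIR10.1; coding sequences were aligned with MAFFT 7.526. The members, lists and motifs were chosen with earlier results of these data known. Named genes were the 7 members, the annotated neighbours (10 on either side of PREP1, 3 on either side of the others), up to 3 called genes per list and comparison, the heteromeric carboxylase list, the 5 genes most and least like PREP1 and ACC2, and ATG5. KRP6, AT3G19200, AT3G19240, AT2G18190 and others were picked from these after their values were seen. Alternatives were DESeq2 1.42.0, RLE factors, no filter, only the libraries compared, a loess trend on exonic length as an offset (span 0.5), each library left out, the column number as a block, and leaving out atg5 WSM libraries 1 and 3.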

Additional observations from a re-analysis of the deposited data

Results flagged for a closer look

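ACC2 was higher in both wild-type WSM libraries than in all wild-type NM libraries, and lower in all 3 atg5 WSM libraries than in both atg5 NM libraries. The log2 response to WSM was lower in atg5 than in wild type by a fitted difference of -2.81. AT1G17960 showed the same opposition, with a difference of -3.17. Both genes are given here for these opposite directions. The difference itself was not tested, since libraries labelled atg5 chose the genes. The same directions without overlap were found for 532 of 19714 genes (2.7%), among them 5 of 71 tested genes of the related lists, such as OVA5 (0.41 in wild type and -0.76 in atg5) and CAC2 (0.22 and -0.25), so the pattern is not particular to ACC2 and AT1G17960. Libraries 1 and 3 of atg5 WSM, which held PREP1 counts, stood lower in both genes than library 2. Without them, library 2 alone was still below atg5 NM, by a log2 of -1.20 for ACC2 and -0.94 for AT1G17960.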

How the results depend on the processing

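Counts of called genes moved with most settings. For wild-type WSM against NM, 1161 genes became 2171 with DESeq2, 5833 with wild-type libraries alone, 2813 without atg5 WSM libraries 1 and 3, and 272 to 2286 with 1 library left out. For atg5 WSM against NM, 1549 became 2659 with DESeq2, 303 with the libraries labelled atg5 alone, and 467 to 2771 with 1 library left out. Between genotypes in NM, 29 became 590 with DESeq2, 494 without atg5 WSM libraries 1 and 3, and 2 to 241 with 1 left out. Between genotypes in WSM, 7 became 343, 61, and 0 to 197 in the same settings. Of the 7 genes, the 1 called in wild type became 5 with wild-type libraries alone, 2 without atg5 WSM libraries 1 and 3 (AT1G17960 then had an edgeR adjusted p of 0.0220), and 0 to 1 with 1 library left out.

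With the column number as a replicate block, the 4 counts were 360, 538, 0 and 0, and 0 of the 7 genes passed. These libraries share only a number: deviations of same-numbered libraries correlated at -0.309 to 0.208. PREP1 (-0.40, edgeR adjusted p = 0.921) and PARC6 (-0.15, adjusted p = 0.965) reversed in wild type under the block, and AT2G18193 kept 2.27 without passing (adjusted p = 0.108). ACC1 reversed in wild type with the length trend (-0.35, adjusted p = 0.604). The cause was not tested. BCS1, AT3G28580 and CYP81D8 did not pass in atg5 with the libraries labelled atg5 alone (adjusted p = 0.0576, 0.0682 and 0.111), without atg5 NM library 3 (0.0886, 0.119 and 0.103) or under the block (0.0805, 0.0820 and 0.0838), nor did CYP81D8 without atg5 NM library 1 (0.0812). Of the tested fold changes under the alternatives, 179 kept their direction and side of the threshold, 17 no longer passed, 5 newly passed and 3 reversed. Depth limits PREP1 and PARC6 in 3 libraries to the counts given.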
